A study of Mus musculus with 30 samples.

Results

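The subject is 36 genes that copy DNA in S phase, chosen by gene symbol. The rule itself used no measured value, but the genes were chosen with earlier results of these data known. All 36 had a row among the 14997 genes of the captured-tissue table and among the 26005 genes of the sphere table. The series measured polyadenylated RNA in 30 mouse libraries. Of these, 20 were taken by laser capture from midbrain floor plate, the ventral midline where dopamine progenitors lie, with 4 libraries at embryonic day 11 (E11), 5 at embryonic day 13 (E13), 5 at embryonic day 18 (E18) and 6 at postnatal day 70 (P70). All 20 captured libraries carry the genotype Lmx1aCreERT2; R26TRAPC, in which a tamoxifen-inducible Cre is driven by the floor plate gene Lmx1a, so no captured library lacks these alleles. The other 10 libraries are adult spheres grown in vitro, 5 named MB and 5 named FB, and the design text names the midbrain aqueduct and the lateral ventricle as sources of ependymal spheres and neurospheres. The labels spell out neither MB nor FB, and give no genotype for the donors of the spheres. Nor do they say if each library stands for its own animal or culture, so p-values measure the spread between libraries, which may be technical.

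DNA replication starts when the origin recognition complex, with Cdc6 and Cdt1, loads the ring of MCM2-7 subunits onto DNA in G1, a step called licensing. At the start of S phase cyclin E activity, Mcm10, Cdc45 and the GINS complex turn the loaded ring into the active helicase. Polymerase alpha and primase then lay down primers, polymerases epsilon and delta extend the leading and lagging strands, the RFC complex loads the PCNA clamp, RPA covers single strands, and Fen1 and Lig1 join Okazaki fragments. E2F transcription factors are known to drive many of these genes late in G1. In the developing midbrain, floor plate cells divide while they make neurons, and the cells that stay at the midline mature into non-dividing ependyma with motile cilia.

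Markers fitted the labelled tissue at E11, where all 10 floor plate markers on a list of 10 were listed, and less so in the adult. Their summed level was 702 to 845 units in E11 libraries, 834 to 956 in E13 libraries, 478 to 648 in E18 libraries and 76.1 to 170.1 in P70 libraries. Lmx1b was not listed at E13 and E18, and Shh and Corin were not listed at P70. Ependymal markers (9 of 10 with a row, of which 4 were not listed at E11 and E13) summed to 17.1 to 46.99 units in E11 libraries, 40.8 to 81.1 in E13 libraries, 6320.2 to 9159.7 in E18 libraries and 14624 to 22081 in P70 libraries. In the spheres, 5 of 6 forebrain markers had a row and summed to 0.234 to 0.946 CPM (counts scaled to library depth) in MB libraries, against 28.4 to 49.7 CPM in FB libraries, and the floor plate markers to 507 to 621 CPM in MB libraries, against 122 to 144 CPM in FB libraries. Only 3 of these 10 floor plate markers, Ntn1, Otx2 and Spon1, passed the filter on low counts in the spheres. The others, among them Foxa2, Lmx1a and Shh, did not. Captured values are given in the deposited units, which behave like RPKM, so that they are scaled for gene length and library depth. A gene is called listed at an age if the table holds its values there, which was so when that mean was 1 unit or more. Reads recovered from those values numbered 3687281 to 4342745 in E11 libraries, 3157279 to 4682494 in E13 libraries, 3086039 to 3921755 in E18 libraries and 1323370 to 3009282 in P70 libraries, with the fewest in P70 replicate 4. Among the members whose reads could be recovered and that were listed, E11 libraries held 60 to 3891 reads of a member (28 members), E13 libraries 8 to 915 (28), E18 libraries 8 to 787 (25) and P70 libraries 0 to 512 (24). Counting error on amplified reads without molecular identifiers covers reads and not molecules. The sphere libraries held 6327198 to 8422358 counts in MB and 6676389 to 9291311 counts in FB.

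Promoter windows from RefSeq (build GRCm38.p6), from 250 bases before to 50 bases after a start site, were on hand for 28 of the 36 members, in 32 windows of 300 bases. Of these windows, 13 (40.6%) held at least 1 of 4 E2F words, TTTCCCGC, TTTGGCGC, TTTCGCGC or TTTGCCGC on either strand, against 2.26% of all 32851 windows. The 13 windows belonged to Orc1, Cdc6, Cdt1, Mcm3, Mcm5, Mcm6, Mcm7, Gins3, Pola1, Pold1, Pold3, Rfc3 and Lig1. Mcm4, Ccne2, Gins1, Gins2, Gins4, Prim2, Pole and Rfc2 had no window and were not searched. The word CCAAT, on either strand, was in 56.3% of member windows and 37.4% of all windows, and TTTGAA or TTTAAA was in 21.9% of member windows and 27.6% of all windows. A match describes letters in a window, not a bound site. The promoters of Mcm3, Mcm5 and Mcm6 are shown because they are subunits of 1 ring with repeated E2F words and with different levels in adult tissue. Those of Rrm2, Pold3 and Rpa1 are shown because Rrm2, which fell far, held none of these words, and Pold3, with 1 word, and Rpa1, with none, kept a larger share of their level than most members. They were picked by their levels, and whether E2F words go with the size of the fall was not tested. Each is written 5′ to 3′ on the strand of its gene, with E2F words in capitals.
Mcm3: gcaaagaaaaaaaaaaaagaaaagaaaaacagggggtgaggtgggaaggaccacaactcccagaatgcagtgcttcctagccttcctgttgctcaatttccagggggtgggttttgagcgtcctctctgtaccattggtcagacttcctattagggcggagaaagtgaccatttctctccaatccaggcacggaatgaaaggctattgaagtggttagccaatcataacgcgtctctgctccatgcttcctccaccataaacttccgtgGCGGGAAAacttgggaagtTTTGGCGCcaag
Mcm5: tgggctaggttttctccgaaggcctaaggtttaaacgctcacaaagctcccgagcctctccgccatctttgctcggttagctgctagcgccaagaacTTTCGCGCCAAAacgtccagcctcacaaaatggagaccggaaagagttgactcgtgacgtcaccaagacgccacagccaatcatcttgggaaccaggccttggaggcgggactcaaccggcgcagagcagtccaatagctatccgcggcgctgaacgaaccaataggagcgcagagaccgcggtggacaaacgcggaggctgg
Mcm6: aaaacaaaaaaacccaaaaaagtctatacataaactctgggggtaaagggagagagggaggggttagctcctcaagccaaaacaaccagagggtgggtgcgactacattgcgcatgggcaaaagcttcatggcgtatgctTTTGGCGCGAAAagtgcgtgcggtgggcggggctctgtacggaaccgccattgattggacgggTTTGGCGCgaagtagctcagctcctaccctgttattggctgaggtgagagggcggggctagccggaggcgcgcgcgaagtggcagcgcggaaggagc
Rrm2: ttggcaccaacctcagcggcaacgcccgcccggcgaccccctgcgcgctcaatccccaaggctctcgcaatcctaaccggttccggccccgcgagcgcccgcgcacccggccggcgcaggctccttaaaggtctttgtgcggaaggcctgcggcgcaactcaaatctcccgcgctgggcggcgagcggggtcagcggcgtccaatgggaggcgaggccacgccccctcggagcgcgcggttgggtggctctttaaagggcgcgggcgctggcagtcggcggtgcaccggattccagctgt
Pold3: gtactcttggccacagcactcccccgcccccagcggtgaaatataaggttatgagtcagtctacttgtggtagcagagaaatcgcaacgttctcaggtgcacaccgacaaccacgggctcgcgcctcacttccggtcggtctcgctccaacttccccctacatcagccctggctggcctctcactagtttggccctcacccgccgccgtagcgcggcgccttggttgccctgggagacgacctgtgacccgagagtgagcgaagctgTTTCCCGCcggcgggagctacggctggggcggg
Rpa1: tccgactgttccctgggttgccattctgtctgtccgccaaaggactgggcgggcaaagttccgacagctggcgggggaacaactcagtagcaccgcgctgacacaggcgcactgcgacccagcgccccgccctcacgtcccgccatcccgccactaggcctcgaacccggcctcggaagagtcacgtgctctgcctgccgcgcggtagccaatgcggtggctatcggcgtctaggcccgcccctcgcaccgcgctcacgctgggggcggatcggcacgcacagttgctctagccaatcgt
Mcm3 (chr1:20820263-20820562, minus strand) held 2 words, which began 20 and 39 bases into the transcript, counting the start as base 1. Mcm5 (chr8:75109259-75109558, plus strand) held 2 overlapping words that began at bases -153 and -149, where -1 is the base before the start. In Mcm6 (chr1:128359656-128359955, minus strand) 3 words began at -110, -106 and -47, of which the first and second overlap. Pold3 (chr7:100121453-100121752, minus strand) had 1 word at base 18, and Rrm2 (chr12:24708004-24708303, plus strand) and Rpa1 (chr11:75348334-75348633, minus strand) had none.

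Across the ages the members as a whole fell, most of the way before birth. Summed over the 36 members, E11 libraries held 3019 to 3769 units, E13 libraries 783 to 1449, E18 libraries 431 to 490.3 and P70 libraries 411 to 492. Every E13 library lay below every E11 library and every E18 library below every E13 library, while E18 and P70 overlapped. Relative to the E11 mean of the same gene, the median member stood at 29.2% at E13 (36 members), 10.01% at E18 (32 listed members) and 8.06% at P70 (30 listed members). At P70, 21 members were under 10% of their E11 mean, and Gins4, Rpa1 and Pold3 were above 50%. In bulk tissue, fewer dividing cells and less RNA per cell cannot be told apart.

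**Figure D1:**
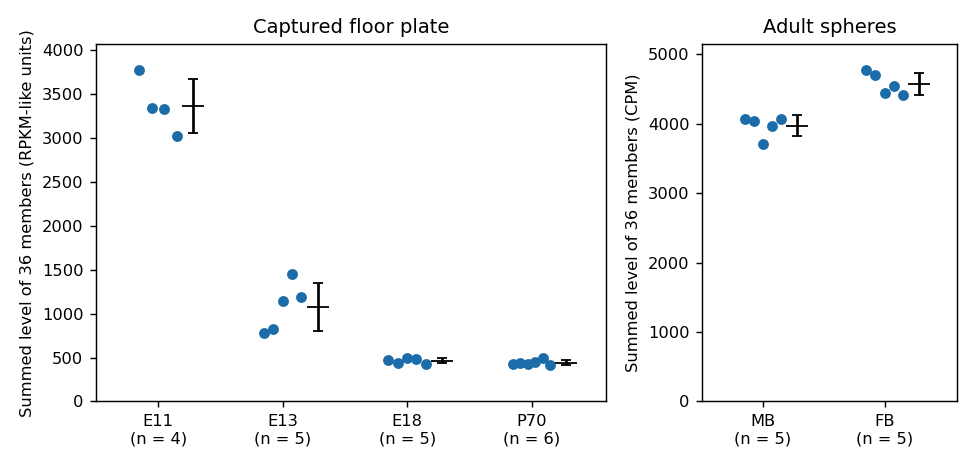
Summed level of the 36 members in each library (points), with the mean and SD of each group (bars), in deposited units for the captured floor plate by age and in CPM for adult MB and FB spheres. The 4 E11 libraries lie between 3019 and 3769 units and the E18 and P70 libraries between 411 and 492 units. The 5 MB libraries all lie below the 5 FB libraries.

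Between E13 and E11, 33 of the 36 members were lower at E13 and none was higher (limma, Benjamini-Hochberg adjusted p under 0.05), where 11.2% of all 11567 genes tested were called lower and 9.26% higher. The members' median log2 difference was -1.76, against -0.04 over all genes. In all 36 members every E13 library was below every E11 library, an order that 17.2% of all genes showed. Pola1 (log2 difference -0.87 ± 0.34 SE, adjusted p = 0.0735), Rfc3 (log2 difference -0.67 ± 0.50 SE, adjusted p = 0.377) and Rpa2 (log2 difference -1.79 ± 0.65 SE, adjusted p = 0.0550) were not called. P70 replicate 6, which enters this fit through the spread that all ages share, held 0 units of Rpa2 and 0.742 units of Rfc3. Without it Rpa2 (adjusted p = 0.0001) and Rfc3 (adjusted p = 0.00771) were called lower as well, which made 35 of 36. With a pseudocount of 0.1 in place of 1, limma no longer called 5 members that the test above had called, with an adjusted p of 0.210 for Gins3, 0.109 for Prim2, 0.0655 for Gins2, 0.0610 for Cdt1 and 0.0561 for Cdc45.

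Between E18 and E13, 24 of 32 members listed at both ages were lower at E18 and 1, Rpa1, was higher, where 24.8% of 11797 genes were called lower and 22.2% higher. The members' median log2 difference was -1.24, against -0.04 over all genes, and in 20 members no E18 library reached an E13 library, as in 20.9% of all genes. Orc1, Cdc6, Mcm10 and Pole dropped out of the listed genes at E18. The members not called were Ccne1, Gins3, Gins4, Pola1, Pold3, Rfc2 and Rpa2. With a pseudocount of 0.1 limma no longer called Pold1, Cdc45, Prim2, Cdt1 and Gins2 (adjusted p between 0.0967 and 0.200), and with TMM scaling Pold1, Prim2, Cdt1 and Mcm4 (adjusted p between 0.0520 and 0.0757). Pold1 was also not called without E13 replicate 3, 4 or 5 or E18 replicate 1, 2, 4 or 5 (adjusted p up to 0.107).

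Between P70 and E18 the members differed little as a group. Of 30 members listed at both ages, 8 were lower at P70 (Gins2, Lig1, Mcm3, Mcm5, Pola2, Prim2, Rfc3 and Rfc5) and 2 were higher (Mcm4 and Gins4), where 23.9% of 12353 genes were called lower and 16.8% higher. Their median log2 difference was -0.31, against -0.14 over all genes, and no member had all its libraries of one age above all of the other, where 9.28% of all genes had every P70 library higher and 11.7% every P70 library lower. Ccne1 and Ccne2 were no longer listed at P70. Scaling the deposited values by trimmed mean of M values (TMM) gave a median of -0.01 in place of -0.14 over all genes, and 2542 genes called higher and 2255 lower in place of 2075 and 2949, and 6 members were then lower and 3 higher, Pold3 being the third. With edgeR on recovered reads 1 of 24 members, Rfc5, was lower, and Mcm4 and Gins4 were higher.

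Over the whole span, 29 of 30 members listed at both ages were lower at P70 than at E11 and none was higher, where 40.1% of 11117 genes were called lower and 24.5% higher. The members' median log2 difference was -3.60, against -0.30 over all genes. In 28 members every P70 library lay below every E11 library, as in 31.1% of all genes. Gins4 was the member not called (log2 difference -0.31 ± 0.17 SE, adjusted p = 0.105), and Orc1, Cdc6, Ccne1, Ccne2, Mcm10 and Pole, listed at E11, were missing at P70. TMM scaling gave a median of -0.06 over all genes and 3362 genes higher and 3556 lower, in place of 2729 and 4454, and Rpa1 was then no longer called (log2 difference -0.31, adjusted p = 0.179). With edgeR on recovered reads neither Pold3 (log2 difference -0.50, adjusted p = 0.0652) nor Rpa1 (log2 difference -0.30, adjusted p = 0.179) was called.

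**Figure D2:**
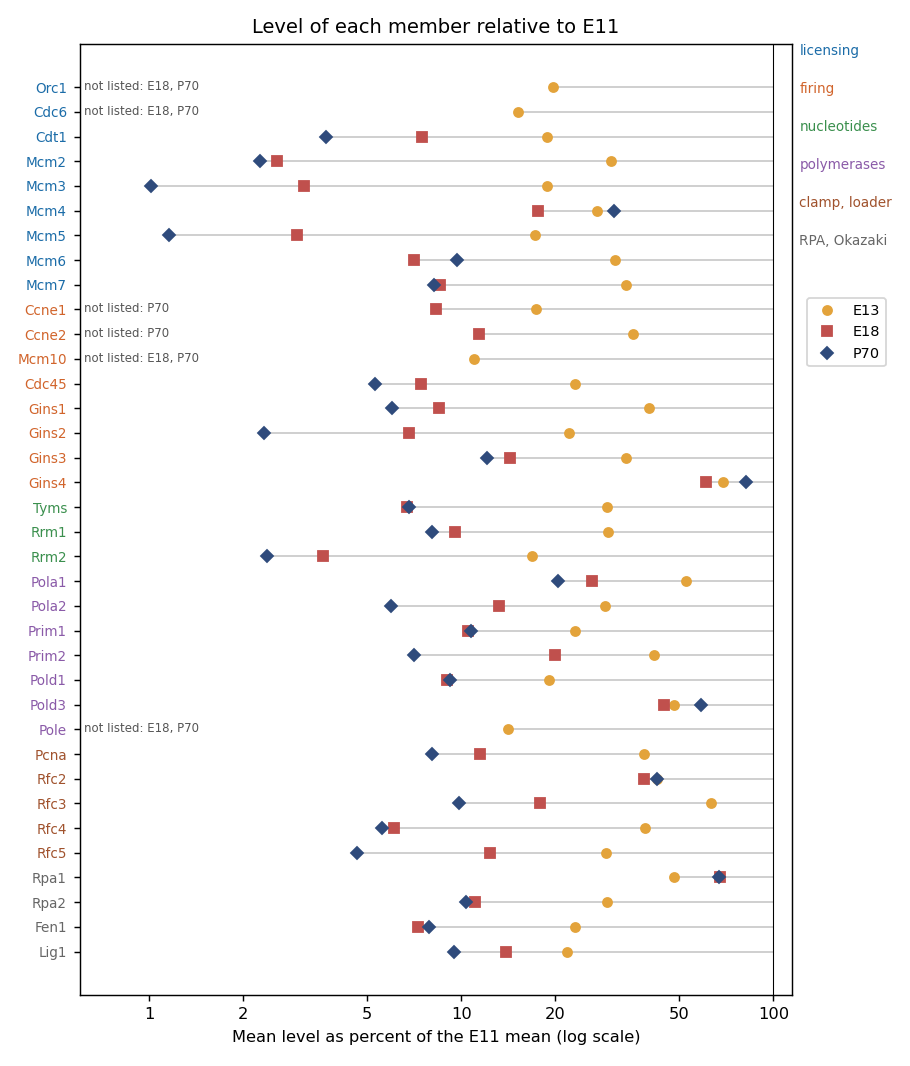
Mean level of each member at E13 (circles), E18 (squares) and P70 (diamonds) as a percentage of its E11 mean on a log axis, with genes ordered and coloured by role. At E18 16 of the 32 listed members are under 10%. Gins4, Pold3 and Rpa1 lie to the right of 50% at P70, though Pold3 and Rpa1 lie to its left at E13, and Mcm3 and Mcm5 end near 1%.

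Among the licensing genes, all 9 fell between E13 and E11, and all 7 still listed fell again between E18 and E13. Of these later calls, that of Cdt1 was lost without E13 replicate 3, 4 or 5 or E18 replicate 2 or 4 (adjusted p up to 0.103), and that of Mcm4 without E13 replicate 3 or 5 or E18 replicate 3 (adjusted p up to 0.0699). Of the loading factors, Orc1 and Cdc6 had low levels even at E11. Orc1, the largest subunit of the origin recognition complex, averaged 1.24 ± 0.615 units at E13, against 6.31 ± 1.80 units at E11 (SD, n = 5 and 4), and Cdc6, the ATPase that joins it on DNA, 1.88 ± 0.938 units at E13, against 12.3 ± 2.44 units at E11. Neither was listed at E18 or P70. Cdt1, which brings the MCM ring to the origin, ran at 46.3, 46.6, 45.2 and 41.2 units in the E11 libraries, 5.34, 4.88, 11.1, 10.2 and 10.7 at E13, 4.02, 2.33, 5.68, 1.19 and 3.57 at E18 and 0 to 5.68 (median 0.776) at P70, where 2 of 6 libraries were at 0. The E11 and P70 libraries stand far apart, while E18 and P70 overlap.

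The 6 subunits of the MCM2-7 ring, which act together in equal numbers as the core of the helicase, did not keep the same proportions of RNA. Mcm7 had the highest mean of the 9 licensing genes, with 217, 181, 181 and 171 units in the E11 libraries, 47.4, 56.3, 66.2, 71.9 and 74.8 at E13, 17.8, 11.5, 18.2, 17.3 and 15.4 at E18 and 7.43 to 19.2 (median 16.5) at P70. Its E11, E13 and E18 libraries do not overlap, and its P70 libraries span those of E18. Ap4m1 overlaps 7.25% of its exon bases. Mcm5 changed most of the licensing genes over the whole span (log2 difference -5.76 ± 0.29 SE, adjusted p = 5.73e-13). It stood at 133, 106, 112 and 98.9 units at E11, 11.7, 14.9, 21.2, 23.98 and 25.6 at E13, 3.26, 3.74, 3.53, 3.59 and 2.61 at E18 and 0.179 to 3.23 (median 0.777) at P70. Mcm3 ended as low, at 0.216 to 2.54 (median 0.641) units at P70, against 88.1 to 121 units at E11. Both Mcm3 and Mcm5 were called lower at P70 than at E18 with limma, though their libraries overlap. With edgeR on recovered reads neither was called (adjusted p = 0.0654 for Mcm3 and 0.0970 for Mcm5). Of all members Mcm2 fell furthest between E18 and E13 (log2 difference -3.18 ± 0.26 SE, adjusted p = 2.74e-09), to 1.07 to 3.93 units at E18, against 25.6 to 45.5 units at E13.

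Mcm4 was the one subunit called higher at P70 than at E18. Mcm6, with means of 14.6 ± 4.78 units at P70 and 10.7 ± 1.24 units at E18, was not called (log2 difference 0.37 ± 0.25 SE, adjusted p = 0.253), and the difference between these subunits was not tested. Mcm4 read 73.7, 66.97, 59.6 and 57.99 units in the E11 libraries, 13.5, 14.1, 20.99, 19.05 and 20.3 at E13, 14.1, 10.8, 7.43, 11.9 and 12.6 at E18 and 11.2 to 24.8 (median 20.8) at P70. The P70 and E18 libraries overlap, and the P70 mean was higher (log2 difference 0.74 ± 0.20 SE, adjusted p = 0.00530), a call kept under each of 7 other settings and without any 1 library. At P70 the order of mean levels was Mcm4, Mcm7, Mcm6, Mcm2, Mcm5 and Mcm3, with a ratio of 19.5 between highest and lowest, where at E11 it was Mcm7, Mcm6, Mcm5, Mcm2, Mcm3 and Mcm4 with a ratio of 2.90. Mcm7 and Mcm6, neighbours in the P70 order (15.4 ± 4.20 and 14.6 ± 4.78 units), differed by less than their SD. Mcm4 held 8.32% to 9.37% of the summed MCM2-7 level in E11 libraries, 7.45% to 10.5% in E13 libraries, 16.1% to 27.1% in E18 libraries and 25.6% to 41.1% in P70 libraries. Mcm3 and Mcm5 together held 28.6% to 30.8% in E11 libraries, 15.02% to 20.2% in E13 libraries, 9.19% to 17.95% in E18 libraries and 0.986% to 7.62% in P70 libraries. Read recovery gave whole reads for all 6 subunits. P70 libraries held only 1 to 27 reads of Mcm3 and 2 to 26 of Mcm5, so the P70 levels and shares of these subunits rest on few reads.

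**Figure D3:**
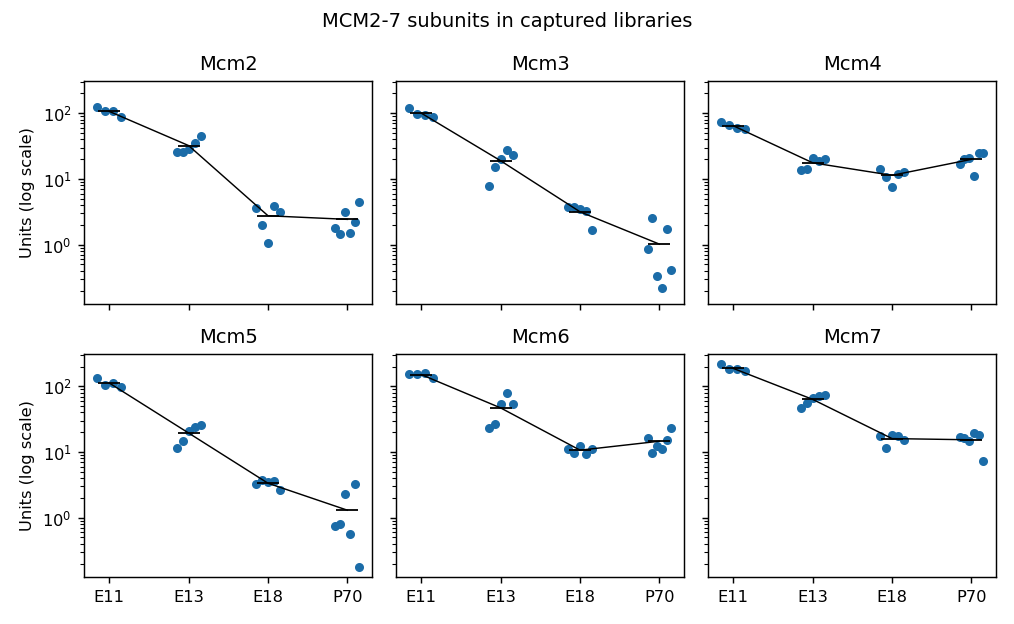
Level of each MCM2-7 subunit in every captured library (points) and the mean per age (bars joined by a line), in deposited units on a log axis, by age. The means of Mcm3 and Mcm5 end near 1 unit at P70, below their E18 means, with libraries that overlap those of E18. Mcm4 ends at a mean of 19.9 units, above its E18 mean of 11.4 units.

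Of the 8 genes that fire the loaded origin, all were lower at E13 than at E11, and 4 of 7 listed were lower at E18 than at E13. Of the 4, Cdc45 was not called without E13 replicate 3 or 5 or E18 replicate 3 (adjusted p up to 0.0613). The cyclins Ccne1 and Ccne2, which activate Cdk2 at the start of S phase, averaged 6.06 ± 3.33 and 5.74 ± 3.14 units at E13, against 34.9 ± 4.87 and 16.2 ± 3.47 units at E11. Mcm10, which helps to activate the helicase, showed the smallest share of all members left at E13 (10.98% of its E11 mean). Cdc45, part of the active helicase, had 3.93 to 13.4 units at E13, against 28.9 to 42.4 units at E11, and 0 to 4.85 units at P70.

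The 4 subunits of GINS, the third part of the active helicase, diverged. Gins2 had 224, 177, 159 and 162 units in the E11 libraries, 27.6, 24.2, 36.5, 68 and 43.1 at E13, 19.7, 12.9, 9.60, 10.02 and 9.28 at E18 and 0 to 12.7 (median 3.14) at P70, with 0 in 1 library, and its change over the whole span was the largest among the firing genes (log2 difference -5.54 ± 0.46 SE, adjusted p = 1.37e-09). Of its annotated exon bases, 67.3% overlap Gse1 on the opposite strand, and Smart-seq2 does not mark strand, so reads of these genes may be mixed. Gins1 and Gins3 stood at 5.99% and 12.1% of their E11 means at P70. Gins4 instead kept most of its level, with 108, 97.7, 92.6 and 94.7 units at E11, 55.7, 55.4, 66.99, 90.1 and 71.3 at E13, 53.4, 60.5, 66.4, 60.7 and 57.5 at E18 and 50.4 to 95.5 (median 83.8) at P70. All E13 libraries were below all E11 libraries (log2 difference -0.55 ± 0.17 SE, adjusted p = 0.0277), while P70 overlapped both E11 and E18. The E13 call was lost without E11 replicate 1 or 2 or E13 replicate 1, 2 or 3 (adjusted p up to 0.0828). Its mean was higher at P70 than at E18 (log2 difference 0.40 ± 0.16 SE, adjusted p = 0.0466), a call that was lost on leaving out any library but E18 replicate 3 or P70 replicate 6 (adjusted p up to 0.0932) and in a fit of E18 and P70 libraries alone (adjusted p = 0.0947). Without P70 replicate 6, the lowest P70 library, the log2 difference was 0.52 (adjusted p = 0.00229). No other gene shares exon bases with Gins4 in the GRCm38 annotation (chr8:23226616-23237659).

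All 3 genes of deoxynucleotide supply fell at both embryonic steps, and none was called between P70 and E18. Rrm2, the small subunit of ribonucleotide reductase that is made in S phase, had the highest E11 mean of all 36 members. Its libraries held 354, 359.6, 362 and 307 units at E11, 29.03, 35.2, 59.4, 107 and 60.6 at E13, 12.7, 13.3, 13.1, 13.5 and 9.98 at E18 and 0.940 to 17.05 (median 8.09) at P70, so that the embryonic ages do not overlap and P70 spans E18. It fell by 5.49 on the log2 scale between P70 and E11 (SE 0.41, adjusted p = 2.54e-10). Rrm1, the large subunit, and Tyms, which makes thymidylate, kept 8.07% and 6.80% of their E11 means at P70. Tyms and Pcna have annotated pseudogenes named after them, so part of their reads may be shared.

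The 7 polymerase and primase genes split in how much was left. Prim1, the catalytic primase subunit, had the highest mean of them over all ages, with 91.8, 94.9, 89.96 and 78.9 units at E11, 16.1, 18.9, 21.2, 31.2 and 15.9 at E13, 4.35, 10.8, 17.4, 8.94 and 5.10 at E18 and 7.21 to 11.7 (median 9.45) at P70. It fell at both embryonic steps, and its P70 libraries lay within the range of E18. Prim2, the regulatory primase subunit, changed most over the whole span (log2 difference -3.75 ± 0.37 SE, adjusted p = 1.85e-08), with 41.5, 42.1, 38.1 and 34.5 units at E11, 12.9, 14.7, 15.8, 23.7 and 13.8 at E13, 6.62, 7.75, 7.82, 9.33 and 7.32 at E18 and 0.361, 8.38, 1.94, 4.10, 0.843 and 0.912 at P70. P70 replicate 2 alone was as high as the E18 libraries. Its call at E13 was lost without E11 replicate 1, 2 or 3 or E13 replicate 1 (adjusted p up to 0.0642), and its call at E18 without E13 replicate 2, 3 or 4 or E18 replicate 1, 2, 3 or 5 (adjusted p up to 0.1001). Pola2 and Pold1, accessory and catalytic subunits of polymerases alpha and delta, ended at 5.96% and 9.24% of E11. Pole, the catalytic subunit of polymerase epsilon, was at 1.78 ± 0.517 units at E13, against 12.6 ± 1.97 units at E11, and was not listed later. Pold3, an accessory subunit of polymerase delta that also serves in repair synthesis, had 41.8, 33.6, 31.1 and 24.3 units at E11, 12.1, 13.6, 14.96, 19.1 and 19 at E13, 18.1, 12.2, 13.6, 14.3 and 14.7 at E18 and 13.9 to 27.4 (median 18.3) at P70. It fell between E13 and E11 (log2 difference -1.004 ± 0.21 SE, adjusted p = 0.00141) and not detectably after that (log2 difference -0.0938 ± 0.19 SE, adjusted p = 0.724 for E18 against E13), and 1 P70 library reached into the E11 range.

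Clamp and clamp loader genes also differed in what was left. Pcna, the sliding clamp, ran at 184 to 218 units in E11 libraries, 51.4 to 119 in E13 libraries, 19.2 to 27.5 in E18 libraries and 9.03 to 33.6 (median 14.4) in P70 libraries. Rfc2, a loader subunit, had the highest mean of the group and of all members over the captured libraries, with 315, 227, 219 and 229 units at E11, 89.4, 93.6, 102, 127 and 113 at E13, 92.9, 83.5, 104, 109.8 and 87.3 at E18 and 84.6 to 121 (median 105) at P70. It fell between E13 and E11 (log2 difference -1.23 ± 0.15 SE, adjusted p = 8.12e-06), and then the 3 later ages overlapped (log2 difference -0.13 ± 0.14 SE, adjusted p = 0.482 for E18 against E13 and log2 difference 0.13 ± 0.14 SE, adjusted p = 0.486 for P70 against E18). Lat2, on the opposite strand, overlaps 15.1% of its exon bases, and Wsb2 overlaps 10.7% of those of Rfc5. Rfc5, another loader subunit, changed most (log2 difference -4.35 ± 0.35 SE, adjusted p = 6.52e-10 for P70 against E11), with 108, 94.2, 90.3 and 101 units at E11, 14.8, 20.2, 28.9, 45.4 and 34.5 at E13, 17.4, 12.9, 12.3, 7.87 and 10.4 at E18 and 1.66 to 9.20 (median 3.32) at P70. Rfc4 fell to 6.08% of its E11 mean by E18, and Rfc3 to 17.9%. At P70 Rfc3 was lower than at E18 (log2 difference -1.18 ± 0.45 SE, adjusted p = 0.0398), and the difference was -0.60 (adjusted p = 0.00575) without P70 replicate 6 and was not called without any 1 of the 5 E18 libraries (adjusted p up to 0.0787) or with TMM scaling (adjusted p = 0.0715). Shares left at P70 were thus 42.3% for Rfc2, 9.82% for Rfc3, 5.59% for Rfc4 and 4.62% for Rfc5, subunits of 1 complex.

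In the last group, of single-strand binding and Okazaki fragment joining, Rpa1 and Rpa2 parted. Both belong to the RPA trimer, which also covers single strands in repair. Rpa1 held 76.5, 66.03, 74.6 and 58.1 units at E11, 25.8, 24.7, 30.3, 48.6 and 36.3 at E13, 52.2, 41.6, 45.6, 53.9 and 38.8 at E18 and 32.8 to 57.9 (median 46.02) at P70. It fell between E13 and E11 (log2 difference -1.07 ± 0.20 SE, adjusted p = 0.000752) and was then higher at E18 than at E13 (log2 difference 0.51 ± 0.19 SE, adjusted p = 0.0341), with overlapping libraries. That second call was lost without E13 replicate 1, 2 or 3 or E18 replicate 1 or 4 (adjusted p up to 0.0942). Rpa2 held 219, 168, 163 and 153 units at E11, 34.3, 39.4, 54.9, 70.6 and 57.8 at E13, 20.2, 16.6, 23.1, 20.03 and 17.3 at E18 and 19.2, 32.1, 9.16, 25.2, 23.8 and 0 at P70. Its E11, E13 and E18 libraries do not overlap, and P70 replicate 6 is at 0 while the other 5 spread around the E18 values. Lig1, the ligase of Okazaki fragments, fell at each step, to 21.8%, 13.9% and 9.47% of E11, the last 2 calls being lost without E13 replicate 5 (adjusted p = 0.0612) and without E18 replicate 2 or P70 replicate 1 or 2 (adjusted p up to 0.0571). The call of Lig1 for P70 against E18 was also lost in limma with TMM scaling (adjusted p = 0.0957). It was lost as well in a limma fit of E18 and P70 libraries alone (adjusted p = 0.0781). Fen1, the flap nuclease, was at 7.89% of E11 at P70, though 78.8% of its exon bases overlap Gm10143 on the opposite strand.

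**Figure D4:**
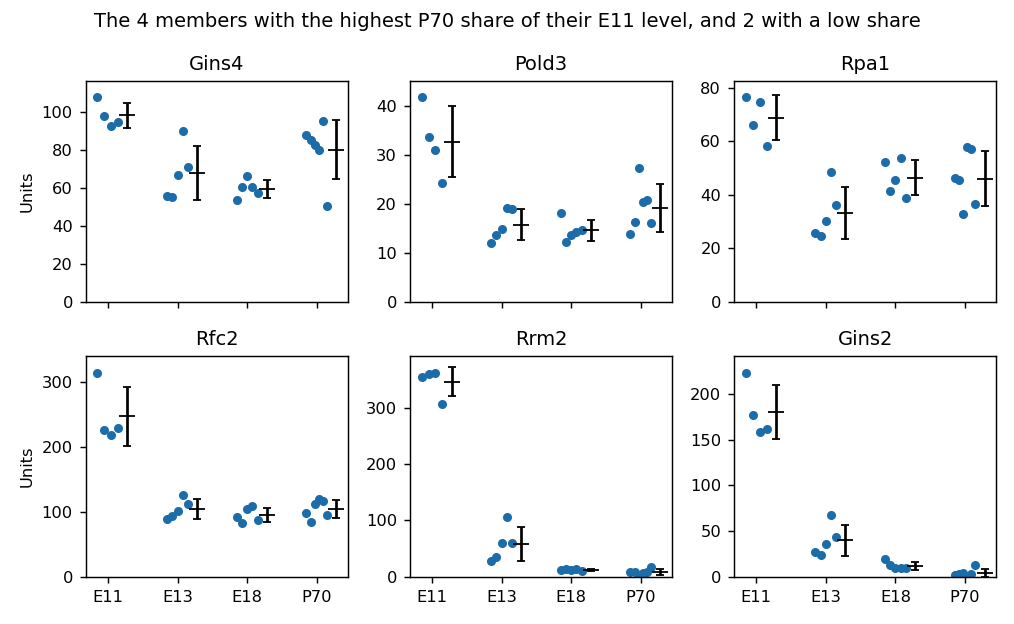
Level in every captured library (points) with the mean and SD per age (bars), in deposited units, for the 4 members with the highest P70 share of their E11 mean (Gins4, Pold3, Rpa1 and Rfc2) and for Rrm2 and Gins2. The first 4 drop between E11 and E13 and stay level or vary after that, whereas Rrm2 and Gins2 are near the bottom of their axes by E18.

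Other replication genes, on lists outside the 36, were mostly lower at both embryonic steps. The shares of all genes called lower were 11.2% for E13 against E11, 24.8% for E18 against E13 and 23.9% for P70 against E18, and those called higher 9.26%, 22.2% and 16.8%. Of 15 origin genes, 9 of 13 tested were lower at E13 than at E11 and none higher, among them Gmnn, the Cdt1 inhibitor geminin (46.9 ± 19.6 units at E13, against 201 ± 6.55 units at E11), while Orc2, Orc3, Orc4 and Orc5 were not called. At E18 7 of 13 were lower than at E13, and at P70 2 of 12, a smaller share than of all genes, were lower than at E18, with none higher. Of 19 fork genes 13 were lower at E13 and none higher. At E18 13 of 16 were lower and 1 was higher, Rfc1, the large loader subunit (log2 difference 0.47, adjusted p = 0.0312). At P70 against E18, 2 of 12, again a smaller share than of all genes, were lower and 3 were higher, namely Rnaseh2a and the histone-fold polymerase epsilon subunits Pole3 and Pole4, and Pole4 averaged 86.1 ± 13.3 units at P70, against 57.9 ± 5.53 units at E18. Further nucleotide genes were lower at E13 in 6 of 9, at E18 in 7 of 8 and at P70 in 4 of 7, with none higher, and Tk1, thymidine kinase, had 18.9 ± 8.61 units at E13, against 82.2 ± 16.2 units at E11. Genes that rebuild chromatin behind the fork were lower in 8 of 9 at E13 and 8 of 9 at E18. At P70 4 of 7 were lower than at E18 and 1 was higher, Chaf1a, the large subunit of the histone chaperone CAF-1, at 25.6 ± 8.73 units at P70, against 5.43 ± 2.12 units at E18 (log2 difference 2.05, adjusted p = 1.34e-06). Its partner Chaf1b was not listed at P70. Median log2 differences of E13 against E11 were -0.87 for the origin list, -1.03 for the fork list, -1.21 for the nucleotide list and -2.01 for the chromatin list, where all genes had -0.04 and the 36 members -1.76. For E18 against E13 they were -0.59, -0.91, -1.66 and -1.21 in the same order, where all genes had -0.04 and the members -1.24.

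Regulators of the G1 to S step were called lower more often than higher, and at each step a smaller share was called higher than of all genes. Of 24 tested, 11 were lower at E13 than at E11 and none higher, among them cyclin D2, Ccnd2 (58.1 ± 14.5 units at E13, against 312 ± 40.6 units at E11). E2f1, an activator of replication genes, averaged 4.41 ± 1.88 units at E13, against 16.5 ± 3.86 units at E11 (adjusted p = 0.0432). At E18 15 of 23 were lower than at E13, and the Cdk inhibitors Cdkn1a and Cdkn1b were higher, Cdkn1a at 23.6 ± 8.69 units at E18, against 4.24 ± 1.73 units at E13 (adjusted p = 5.01e-05), and Cdkn1b at 69.4 ± 21.9 units at E18, against 33.8 ± 24.03 units at E13 (adjusted p = 0.0186). The Cdk inhibitors Cdkn1c and Cdkn2c, on the same list, were among the 15 lower at E18. At P70 7 of 20, among them Cdkn1c, were lower than at E18, and Ccnd2 and Cdk6 were higher. Ccnd2 averaged 32.8 ± 11.01 units at P70, against 18.5 ± 4.85 units at E18. Mitotic genes fell too, in 9 of 10 at E13 and 8 of 8 at E18. Mki67 and Bub1 were not listed from E18 on, and Top2a, Ccnb1, Cdk1 and Aurkb were not listed at P70 either.

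Markers of other cells moved along with these changes, and their part in them was not tested. The 10 neuron markers summed to 361 to 1094 units in E11 libraries, 1152 to 3562 in E13 libraries, 1179 to 3786 in E18 libraries and 352 to 907 in P70 libraries, and 4 of 10 were called higher at E13 than at E11, as were 9.26% of all genes. The 6 erythroid markers with a row, among them embryonic globins, summed to 15153 to 39857 units in E11 libraries, 4728 to 16624 in E13 libraries, 1.62 to 6.85 in E18 libraries and 7.12 to 446 in P70 libraries, and 4 of 6 were not listed at E18. The 8 fibroblast markers summed to 302 to 833 units in E11 libraries, 62.8 to 166 in E13 libraries, 70.2 to 118 in E18 libraries and 12.96 to 54.3 in P70 libraries, and Col1a1, Col3a1 and Lum were not listed from E18 on. Microglial markers, 9 in all, summed to 41.1 to 90.6 units in E11 libraries, 159 to 263 in E13 libraries, 86.4 to 444 in E18 libraries and 342 to 526.1 in P70 libraries, and all 7 tested were called higher at E13 than at E11. The 8 neural progenitor markers summed to 1889 to 1933 units in E11 libraries and 7303 to 14379.6 in E13 libraries. In E18 libraries they summed to 4169 to 5105 units and in P70 libraries to 1059.8 to 1557 units. Pax6 among them was not listed at E11. Of the 7 tested between E13 and E11, Fabp7 and Slc1a3 were called higher and Nes lower, where 9.26% of all genes were higher and 11.2% lower. Hes1, Hes5, Sox2 and Vim were not called, and the median log2 difference of the 7 was 0.20. Astrocyte markers, also 8, summed to 34.9 to 54.6 units in E11 libraries, 82.3 to 192 in E13 libraries, 343 to 507 in E18 libraries and 1106 to 1452 in P70 libraries, and the 10 oligodendrocyte markers to 7.26 to 30.1 units in E11 libraries, 8.66 to 12.6 in E13 libraries, 154 to 211 in E18 libraries and 363 to 957 in P70 libraries. The 8 endothelial markers summed to 49.5 to 70.3 units in E11 libraries, 47.03 to 66.8 in E13 libraries, 16.2 to 25.2 in E18 libraries and 12.6 to 68.1 in P70 libraries. Forebrain markers, with 3 of 6 present in the table, summed to at most 9.62 units in any captured library. Within E13, where the summed member level varied most between libraries relative to its mean, replicates 1 and 2 held 783 and 825 units of the members and 2166 and 3562 units of neuron markers, while replicates 3, 4 and 5 held 1138, 1449 and 1190.2 units of the members and 1994, 1331 and 1152 units of neuron markers. Microglial markers summed to 263 and 254 units in E13 replicates 1 and 2, against 193, 193 and 159 units in replicates 3, 4 and 5. Within E18, replicate 3 held the highest sum of neuron markers (3786 units) and also of the members (490.3 units). These relations were not tested.

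In the spheres all 36 members passed the filter on low counts, and the question is whether MB and FB cultures differ. No member was higher in MB, and 12 of 36 were lower (edgeR quasi-likelihood test, Benjamini-Hochberg adjusted p under 0.05), where 14.3% of 12886 genes were called lower and 15.3% higher. The share of members called lower, 12 of 36, is above that of all genes, and the differences are small, with a median log2 of -0.18 against -0.02. In 7 members every MB library was below every FB library, as in 9.8% of all genes. Summed over the 36, MB libraries held 3707 to 4070.2 CPM, against 4414 to 4766 CPM in FB libraries, without overlap. CPM is not divided by gene length, so levels are compared between cultures and not between genes.

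**Figure D5:**
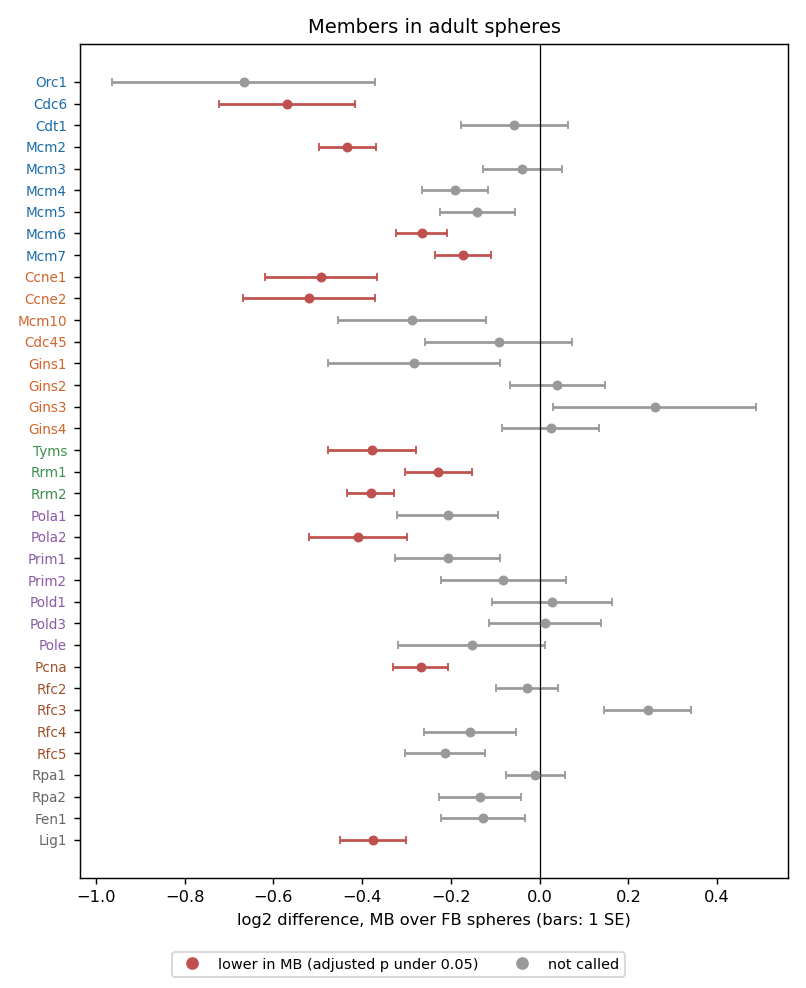
Log2 difference of MB over FB spheres for each member (point) with 1 SE (bar), with gene names ordered and coloured by role. The 12 members called lower in MB, in red, lie between -0.17 and -0.57, and no member is called higher.

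By role, all 3 nucleotide genes were called lower in MB (median log2 difference -0.38), as were 4 of 9 licensing genes (-0.19), 2 of 8 firing genes (-0.19), 1 of 7 polymerase genes (-0.15), 1 of 5 clamp genes (-0.16) and 1 of 4 single-strand and joining genes (-0.13). Among the members called, Cdc6 had the largest difference. It ran at 25.2, 28.3, 37.8, 41.8 and 34.4 CPM in the MB libraries, against 49.5, 64.7, 45.2, 47.5 and 41.7 CPM in the FB libraries. A single MB library, the one at 41.8 CPM, reached the FB range (log2 difference -0.57 ± 0.15 SE, adjusted p = 0.00781). Ccne2 had 33.2, 29.7, 27.2, 45.4 and 34.7 CPM in MB, against 50.9, 43.1, 60.6, 40.8 and 47.96 CPM in FB (log2 difference -0.52 ± 0.15 SE, adjusted p = 0.0123), with the highest MB library among the FB values, and was not called without FB replicate 3 (adjusted p = 0.05004). Ccne1 had 62.9, 58.5, 37.2, 43.5 and 50.4 CPM in MB, against 75.8, 68.8, 69.7, 66.4 and 74.5 CPM in FB (log2 difference -0.49 ± 0.13 SE, adjusted p = 0.00533), with no overlap. Orc1 had the largest difference of all and was not called (log2 difference -0.67 ± 0.30 SE, adjusted p = 0.101), with 7.48, 11, 6.68, 11.7 and 7.30 CPM in MB, against 24.5, 13.4, 9.27, 15.2 and 7.75 CPM in FB. Mcm2 had 192, 181, 181, 176 and 196 CPM in MB, against 244, 273, 263, 235 and 235 CPM in FB (log2 difference -0.43 ± 0.0640 SE, adjusted p = 3.04e-05), again with no overlap.

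Of the other MCM subunits Mcm6 was lower in MB (log2 difference -0.27 ± 0.0581 SE, adjusted p = 0.00157), and so was Mcm7 (log2 difference -0.17 ± 0.0632 SE, adjusted p = 0.0455), whose call was lost without any 1 of 8 libraries, that is all but MB replicate 5 and FB replicate 5 (adjusted p up to 0.159), and also without the filter on low counts (adjusted p = 0.144) and with other scaling (RLE, adjusted p = 0.0578). Mcm3, Mcm4 and Mcm5 were not called, and Mcm3 averaged 195 ± 27.2 CPM in MB, against 200.2 ± 14.8 CPM in FB. All 3 nucleotide genes were lower, with Rrm2 at 361 to 430.3 CPM in MB, against 500.2 to 523 CPM in FB, and Tyms at 56.97 to 73.6 CPM in MB, against 76.6 to 94.2 CPM in FB. The call of Rrm1 (log2 difference -0.23 ± 0.0752 SE, adjusted p = 0.0268) was lost without MB replicate 2, 3 or 4 or FB replicate 1, 2 or 4 (adjusted p up to 0.108). Of the polymerase genes only Pola2 was called, with 60.6, 66.9, 53.9, 73.01 and 58.5 CPM in MB, against 80.4, 93.7, 79.8, 66.9 and 94.3 CPM in FB (log2 difference -0.41 ± 0.11 SE, adjusted p = 0.00818), and the highest MB library overlapped the lowest FB library. Pcna and Lig1 were lower in MB without overlap (log2 difference -0.27 ± 0.0626 SE, adjusted p = 0.00267 and log2 difference -0.38 ± 0.0739 SE, adjusted p = 0.000615). The 4 members whose share of E11 was highest at P70 in captured tissue were not called here, at log2 differences of 0.0250 for Gins4, 0.0118 for Pold3, -0.00968 for Rpa1 and -0.0281 for Rfc2 (SE 0.11, 0.13, 0.0662 and 0.0700). Rfc3 was not called (log2 difference 0.24, adjusted p = 0.0677), and without FB replicate 3 it was called higher in MB (log2 difference 0.31, adjusted p = 0.0260).

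On the other replication and cell cycle lists no gene was called higher in MB. Against 14.3% of all genes called lower, lower in MB were 2 of 15 origin genes (Orc4 and Wdhd1), 2 of 19 fork genes (Atad5 and Pole3), 4 of 9 further nucleotide genes, 6 of 9 chromatin genes, 10 of 25 G1 to S regulators and 7 of 10 mitotic genes. The origin and fork shares lie below that of all genes. The median log2 differences were -0.25, -0.14, -0.26, -0.39, -0.34 and -0.38 in that order, where all genes had -0.02. Cyclin D1, Ccnd1, averaged 2042 ± 52.2 CPM in MB, against 2656 ± 80.7 CPM in FB (SD, n = 5 each), and the Cdk inhibitor Cdkn1a averaged 438 ± 27.2 CPM in MB, against 791 ± 31.5 CPM in FB (log2 difference -0.85, adjusted p = 2.58e-10). Markers of neural progenitors and of oligodendrocytes moved in the same direction, and their part in the result was not tested. The 8 progenitor markers summed to 3969 to 4415 CPM in MB, against 6138 to 6480.1 CPM in FB, with 7 of 8 called lower, and the 10 oligodendrocyte markers to 2985 to 3663 CPM in MB, against 3768 to 4222 CPM in FB, with 5 lower and 2 higher. Neuron markers summed to 679 to 738 CPM in MB, against 517 to 586 CPM in FB, astrocyte markers to 2253 to 2468 CPM in MB, against 2172 to 2318 CPM in FB, and fibroblast markers to 89.8 to 122 CPM in MB, against 36.3 to 46 CPM in FB. Of 6 fibroblast markers tested, Fn1 and Vtn were called higher in MB and Dcn lower, where 15.3% of all genes were higher and 14.3% lower. Col1a1, Col1a2 and Pdgfrb were not called, and the median log2 difference of the 6 was -0.63. Ependymal markers summed to 29.96 to 42.5 CPM in MB, against 18.2 to 24.96 CPM in FB. Microglial, endothelial and erythroid markers had summed levels in both cultures of at most 23.6, 12.1 and 1.64 CPM.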

How the data were processed

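Per the labels' protocols, polyadenylated RNA (RNeasy micro kit) was amplified by Smart-seq2, which marks neither molecules nor strand, and made into libraries with Tn5. The submitters' processing notes name mm10 and GRCm39 as builds and STAR 2.3, Salmon 1.6.0 and DESeq2 1.34.0 as tools, without roles. Which of these made each table is not stated. The authors deposited normalised values for the 20 captured libraries, in a unit the file headers do not name, listing a gene at an age where its mean reached 1 unit. Of 15139 lines, 142 with 1 of 11 repeated symbols were left out. The sphere counts were deposited by the authors as whole numbers. Per the file headers every column names its library, and 0 columns were left unused.

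Captured values were tested with limma 3.58.1 (R 4.3.3) on log2(value + 1), a scale that understates changes of low genes, with a variance trend, all 20 libraries in 1 fit and contrasts of ages over genes listed at both. For spheres, edgeR 4.0.16 (quasi-likelihood F-test) was applied after TMM scaling and its default filter, and CPM use the same scaling. Benjamini-Hochberg adjustment covered every gene tested in a comparison, and calls needed an adjusted p under 0.05. Values of the captured table behave like RPKM: for 11589 of 14997 genes (77.3%) and 28 of 36 members, whole reads within 0.01 of a whole number were recovered, and edgeR was run on them as an alternative. The other alternatives were a pseudocount of 0.1, a mean of at least 5 units, libraries of both ages only, library weights, TMM scaling, a replicate block, DESeq2 1.42.0, RLE scaling or no filter for spheres, and each library left out. The tests were also tried on simulated data with known changes. No pair of replicates agreed within sampling noise.

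The members and lists were chosen with earlier results of these data known. Values of every library are given for the members of each role with the highest mean and the largest change, for members called against the direction of the rest, for the 6 largest sphere differences and for a few others picked after their values were seen. Gene coordinates, exon overlaps and pseudogenes are from the GRCm38 annotation, and promoters from RefSeq on GRCm38.p6.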

Additional observations from a re-analysis of the deposited data

Results flagged for a closer look

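Among 206 groups of 4 to 6 libraries examined, 1 per member and group, 14 held a library that stood apart from the rest by the gap between it and its nearest neighbour, where chance alone flags about 1 in 20. At E11, replicate 1 was high for Pola1 (12.47 units, nearest 7.844), Pold1 (40.78, nearest 28.06) and Rfc2 (314.9, nearest 229.4), and replicate 4 was low for Rrm2 (307.1, nearest 353.8) and Pcna (184.3, nearest 215). At E13, replicate 4 was high for Prim2 (23.71 units, nearest 15.76). At E18, replicate 5 was low for Mcm3 (1.643 units, nearest 3.195) and Rrm2 (9.975, nearest 12.67). At P70, replicate 6 was high for Gins2 (12.73 units, nearest 4.698) and Pcna (33.59, nearest 17.22) and low for Gins4 (50.42, nearest 79.88), and replicate 3 was high for Fen1 (10.95, nearest 6.025). In spheres, MB replicate 3 was low for Mcm3 (147.7 CPM, nearest 195) and FB replicate 2 was high for Fen1 (152.3 CPM, nearest 120.1).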

How the results depend on the processing

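The count of members called stayed within 1.5 times under each other setting, at 28 to 36 for E13 against E11, 20 to 29 for E18 against E13, 21 to 29 for P70 against E11 and 11 to 12 for MB against FB, with 1 exception. For P70 against E18 it was 3 of 24 members with edgeR on recovered reads, against 10 of 30, and 7 to 12 under the others. In each captured comparison that setting could test only members with recovered reads, of which 24 were listed at P70. Leaving out 1 library gave 31 to 35, 19 to 28, 29 to 29 and 10 to 14 members for the first 4 comparisons and 7 to 12 for P70 against E18. Over all genes, E13 against E11 gave 2364 calls, 3766 with libraries of both ages only and 4836 with library weights, P70 against E18 gave 5024 and 2881 with edgeR on recovered reads, and P70 against E11 gave 7183 and 4752. Replicate numbers did not pair libraries (correlations of their deviations were between -0.148 and 0.25), so the replicate block, with 35, 28, 12, 29 and 11 members called for E13 against E11, E18 against E13, P70 against E18, P70 against E11 and MB against FB, is given only here. Signs turned only for members that were not called. For P70 against E18 the log2 differences then became, with library weights, Pold1 0.0475, Rpa1 0.0817, Rpa2 0.11, Mcm7 0.14, with TMM Rpa1 0.12, Tyms 0.11, Mcm7 0.0514, with the replicate block Pold1 0.16, Rpa1 0.0304, Rpa2 0.0710, Mcm7 0.0880, and with edgeR on recovered reads Pold1 0.0606, Rpa1 0.0560. Leaving out 1 library gave Rpa1 -0.10 to 0.0595, Prim1 -0.0381 to 0.41, Tyms -0.11 to 0.14, Fen1 -0.13 to 0.16, Rfc4 -0.34 to 0.0508, Pold1 -0.37 to 0.16, Rpa2 -0.94 to 0.0710, Mcm7 -0.20 to 0.0880 for P70 against E18 and Rpa1 -0.0465 to 0.0333, Pold3 -0.0894 to 0.0850, Gins2 -0.0487 to 0.0983, Pold1 -0.12 to 0.12, Gins4 -0.0328 to 0.0835, Mcm3 -0.0752 to 0.0462, Cdc45 -0.19 to 0.0121, Rfc2 -0.0460 to 0.0182 for MB against FB, where Rpa1 0.00664 was found without a filter. The fit without P70 replicate 6 for embryonic comparisons was chosen after seeing the data and called 35 and 28 members. The cause of these changes was not tested. Depth limits P70 most: over the 24 members with recovered reads there, the median of the lowest count in any library was 8 reads.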

Other observations

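DNA repair genes, which share enzymes with replication, were called in both directions over the ages. Of 16 on the list, 4 of 15 tested were lower at E13 than at E11 and none higher, where 11.2% of all genes were lower. At E18 6 of 15 were lower than at E13 and 2 were higher, the translesion polymerase Polk and the glycosylase Ogg1, which removes oxidised guanine, where 24.8% of all genes were lower and 22.2% higher. At P70 2 of 15 were lower than at E18 (Parp1 and Polb) and 5 were higher (Mutyh, Ogg1, Polk, Poll and Xrcc5), where 23.9% of all genes were lower and 16.8% higher. Polk averaged 13.4 ± 2.38 units at P70, against 2.34 ± 0.522 units at E11 (SD, n = 6 and 4, limma adjusted p = 7.55e-09), and Ogg1 36.6 ± 9.78 units at P70, against 6.97 ± 2.70 units at E11 (adjusted p = 1.96e-07). Parp1, a sensor of strand breaks, averaged 9.28 ± 2.64 units at P70, against 103 ± 9.75 units at E11 (adjusted p = 6.57e-13). In MB against FB spheres, 4 of 16 were lower (Lig3, Parp1, Polk and Xrcc1) and none was higher, where 14.3% of all genes were lower and 15.3% higher.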
